A study of Mus musculus with 4 samples.

Results

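Mature Ccr7 dendritic cells were 95 of the 40565 cell barcodes kept from 4 single-cell libraries of mouse ascending aorta. Kept barcodes had 200 genes or more and under 20% of their UMIs (unique molecular identifiers, each standing for 1 captured RNA molecule) in mitochondrial genes. The members were chosen by their counts of 11 genes. A kept barcode was taken when it held at least 1 UMI of Ccr7 and of Fscn1 and at least 5 of H2-Ab1. It also had to hold fewer than 3 UMIs of C1qa and C1qb together, 0 of Cd3e, 0 of Cd79a, fewer than 3 of Mki67 and Top2a together, and less than 0.3% of its UMIs in Acta2 and Tagln. The limits thus took cells with a chemokine receptor, an actin-bundling protein and MHC class II, and left out macrophages, T cells, B cells, smooth muscle cells and dividing cells. Levels of these genes in the members follow from the choice and are given as a description.

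Dendritic cells sample antigen in tissues and present it to T cells. On maturation they take up less antigen, raise surface peptide-MHC and costimulatory molecules, switch on the chemokine receptor Ccr7 and follow its ligands Ccl19 and Ccl21 through lymphatic vessels to the draining lymph node. Cells with this programme have been described in many tissues and tumours, where they also carry inhibitory molecules such as PD-L1, and in arteries conventional dendritic cells reside mainly in the outer wall.

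All libraries came from the ascending aorta of wild-type (WT) male mice in which dissection was induced with BAPN (β-aminopropionitrile, an inhibitor of lysyl oxidase, the enzyme that cross-links collagen and elastin), at 1 g/kg/d in drinking water for 4 weeks from 3 weeks of age. The AD group, 2 libraries, received BAPN. The AD_ABR group, 2 libraries, received BAPN and paquinimod, a small molecule that binds S100A9, at 10 mg/kg/d by the intragastric route. Mice without BAPN were not analysed here, so every value below is from aortas of BAPN-treated mice. The labels do not say that the libraries came from separate animals, so p-values measure only the spread between these libraries. Sets of 4 values are in the order AD 1, AD 2, AD_ABR 1 and AD_ABR 2.

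The libraries held between 76142840 and 99572011 UMIs and between 9116 and 10806 kept barcodes, with a median of 5569 to 9529 UMIs per kept barcode. Any pair of libraries shared between 22 and 38 barcode sequences. No barcode sequence was a member in more than 1 library, and 1 member's sequence was also kept in another library. The members numbered 54, 29, 7 and 5, so that 83 were from AD and 12 from AD_ABR. Their median UMIs were 5536, 6624, 9738 and 7025, and their median numbers of detected genes were 1670, 1915, 2504 and 1944. Members of AD_ABR were thus few and, at the median, more deeply sampled. Rn18s-rs5 (related to ribosomal RNA) accounted for 7.17%, 3.94%, 1.31% and 0.868% of the median member's UMIs, and 7.26%, 4.10%, 1.47% and 1.01% in the comparison cells described next, so it followed the library. Its part in the results was not tested.

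The closest cells for comparison were other dendritic cells that met the same limits on H2-Ab1 and on the genes of other lineages but held 0 UMIs of Ccr7. Those with Cd209a and neither Xcr1 nor Clec9a, markers of the cDC2 and cDC1 lineages of conventional dendritic cells, are called Cd209a-gated here and numbered 145, 141, 42 and 73, in all 401. Those with Xcr1 or Clec9a and no Cd209a numbered 32, 47, 6 and 19, in all 104. Expression was compared as UMIs summed over the cells of a class in each library and given as CPM, the UMIs of a gene scaled to a common total of UMIs.

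The label of mature dendritic cells was set beside genes that the rule did not use. The rule's limits on Cd3e, Cd79a and C1qa with C1qb already act against T cells, B cells and macrophages. Low counts of other genes of these lineages therefore follow in part from the choice and are a description. Traf1, an adaptor of TNF receptors, had a UMI in 50 of 54, 28 of 29, 7 of 7 and 5 of 5 members. Its CPM of 1153, 577.1, 1106 and 1224 overlapped with those of the Cd209a-gated cells, at 741, 572.6, 420.2 and 249.6, so it set the members apart little. Ccl22, the chemokine that attracts Ccr4-bearing T cells, had a UMI in 24, 12, 3 and 3. Its CPM were 533, 333, 143 and 2641, and 86.4% of the 110 Ccl22 UMIs in AD_ABR 2 came from 1 barcode, so that value describes 1 cell. In the Cd209a-gated cells Ccl22 stood at 48.6, 26.9, 26.4 and 32.9 CPM. Of 20 marker genes of mature dendritic cells, the 18 other than Ccr7 and Fscn1 summed to 9045, 8327, 19109 and 16110 CPM in the members and to 2100, 1655, 1041 and 1142 CPM in the Cd209a-gated cells. The gate on Ccr7 divides these cells, so the gap between the sums is a description. Xcr1, Clec9a, Tlr3 and Gpr33 of the cDC1 list had 0 UMIs in all members, as did Cd3d, Cd3g, Lck, Cd4, Cd8b1 and Skap1 of 10 T cell markers and, among 8 B cell markers, Igkc, Pax5, Fcmr and Bank1. The whole list of 12 cDC1 markers summed to 319, 392, 1119 and 528 CPM in the members. In the Cd209a-gated cells it summed to 358, 496, 386 and 357 CPM, so the members were higher in both AD_ABR libraries. Both classes were far below the Xcr1 or Clec9a-gated cells, at 4503, 5275, 5347 and 4332 CPM, which were gated on genes of that list. Irf8, a factor of the cDC1 lineage, was in 39 of the 95 members. The summed T cell list stood at 81.7 to 234 CPM, most of it Il7r (74.5, 152, 234 and 144 CPM), and the summed B cell list at 0 to 52.1 CPM. The 12 macrophage markers summed to 485, 259, 573 and 1032 CPM in the members and to 1339, 1199, 1911 and 2610 CPM in the Cd209a-gated cells. Fibroblast genes, described next, also went against the label.

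Fibroblast RNA was more abundant in the members than in the comparison cells. The 8 fibroblast markers, Col1a1, Col1a2, Col3a1, Dcn, Lum, Pdgfra, Mgp and Fbln1, summed to 13699, 13102, 12795 and 20240 CPM in the members, and to 2562, 2444, 2299 and 6279 CPM in the Cd209a-gated cells. Most of it lay in 12 members (6, 4, 1 and 1), in which these genes took between 1.97% and 7.20% of UMIs, against at most 0.427% in the other 83. The 12 held between 11350 and 30882 UMIs, with a median of 20177 against 5771 in the others, and 31.4% of all UMIs of the members. Their median Ccr7 count was 6.5 UMIs against 16 in the others, and their median Fscn1 count 3.5 against 7. Of the 12, 11 were among the barcodes of highest doublet score in their libraries, which took 17 members in all. Fscn1 itself was detected in 34.8%, 39.6%, 16.9% and 15.6% of barcodes gated as fibroblasts. Each comparison was therefore also made without the barcodes of highest doublet score, which left 43, 25, 6 and 4 members. The fibroblast list then summed to 882, 6306, 544 and 858 CPM in the members and 810, 1066, 762 and 631 CPM in the Cd209a-gated cells. AD 2 kept 1 barcode of the 12 and with it the high sum.

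**Figure D1:**
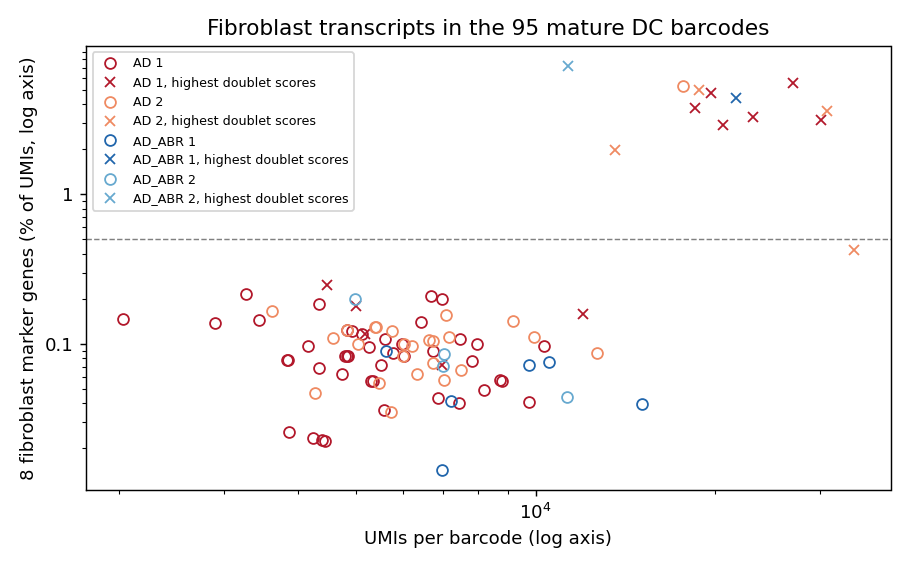
Share of UMIs in 8 fibroblast genes (log axis, percent) against the UMIs of each barcode (log axis), 1 point per member, coloured by library; the dashed line marks 0.5%. The 12 members above the line hold 1.97% to 7.20% and at least 11350 UMIs each, and the other 83 lie at or below 0.427%.

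Mature Ccr7 dendritic cells made up a smaller share of kept barcodes in AD_ABR than in AD. They were 0.543% of kept barcodes in AD 1 (95% exact binomial interval 0.408% to 0.708%), 0.271% in AD 2 (0.182% to 0.389%), 0.0768% in AD_ABR 1 (0.0309% to 0.158%) and 0.0463% in AD_ABR 2 (0.0150% to 0.108%). These intervals cover counting error only. Both AD libraries lay above both AD_ABR libraries, and the 2 AD libraries differed from each other by more than the 2 AD_ABR libraries did. The group means were 0.407% ± 0.192 (SD, n = 2) in AD and 0.0615% ± 0.0216 (SD, n = 2) in AD_ABR, 6.62 times higher in AD. An exact permutation test over the libraries, two-sided, gave p = 0.333, the smallest that 2 against 2 allows. In edgeR's quasi-likelihood test over 14 gated classes of barcodes, the members fell by 2.71 on the log2 scale (SE 0.98, Benjamini-Hochberg adjusted p = 0.0342). In the same test 42.9% of the classes were called lower, the members among them, and 7.14% higher, so a fall of a class was common here.

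The call did not hold when any library was left out, with log2 differences of -2.13 without AD 1 (adjusted p = 0.408), -3.13 without AD 2 (0.124), -3.10 without AD_ABR 1 (0.227) and -2.39 without AD_ABR 2 (0.215). It was also lost with TMM scaling over the classes (-1.73, adjusted p = 0.104). With barcodes that held a Ptprc UMI (CD45, the marker of leukocytes) as the total, the difference was -0.95 (edgeR adjusted p = 0.716). Of 4194, 2115, 648 and 1237 such barcodes, the members that held Ptprc themselves were 0.954%, 1.09%, 0.926% and 0.243%, so 3 libraries were alike and AD_ABR 2 was lower. Leukocytes as a whole were fewer in AD_ABR by these counts, and the share of members among them was not shown to differ.

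Among the 3 gated dendritic classes the members were 54 of 231 in AD 1 (23.4%), 29 of 217 in AD 2 (13.4%), 7 of 55 in AD_ABR 1 (12.7%) and 5 of 97 in AD_ABR 2 (5.15%). The exact binomial intervals were 18.1% to 29.4%, 9.14% to 18.6%, 5.27% to 24.5% and 1.70% to 11.6%. The group means were 18.4% ± 7.08 in AD and 8.94% ± 5.36 in AD_ABR (SD, n = 2 each, exact permutation p = 0.333). AD 2 and AD_ABR 1 were alike, and the spread within each group was close to the difference between them. These totals left out barcodes that held Ccr7 but 0 UMIs of Fscn1 and met the other limits. Such barcodes, described below, numbered 279, 254, 15 and 22, and 66.5% of them held Cd209a. Neither comparison gate takes a barcode with Ccr7, so the shares and their difference between groups depend on the gates. The Cd209a-gated cells were 1.46%, 1.32%, 0.461% and 0.676% of kept barcodes (log2 difference -1.29, edgeR adjusted p = 0.146), and the Xcr1 or Clec9a-gated cells 0.322%, 0.439%, 0.0658% and 0.176% (-1.63, adjusted p = 0.132).

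**Figure D2:**
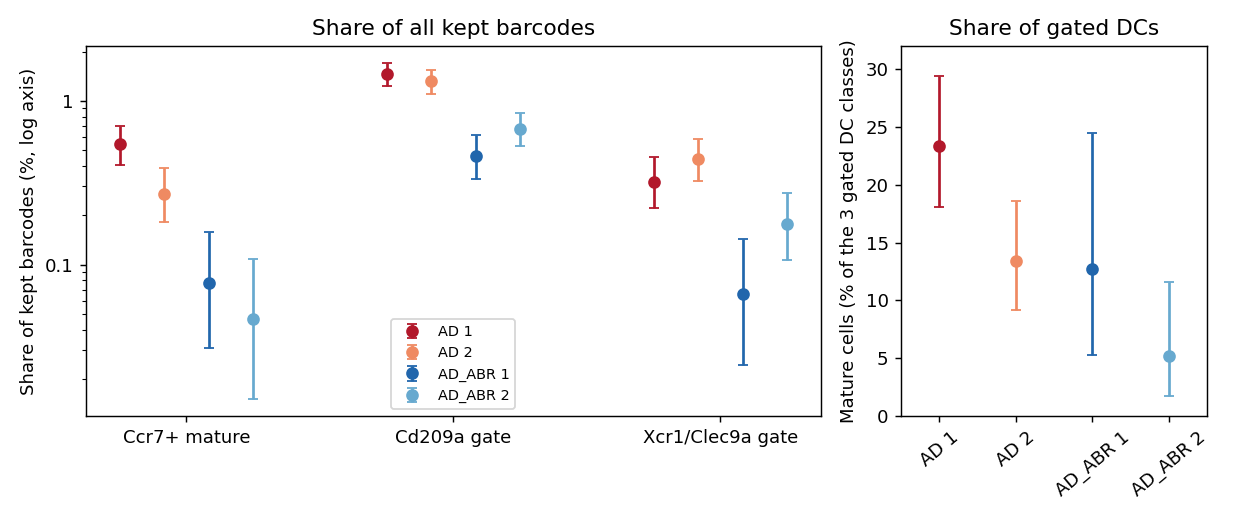
Left, share of kept barcodes (percent, log axis) of the mature cells and of both gated dendritic classes in each library, with 95% exact binomial intervals; right, mature cells as a percent of the 3 dendritic classes. The mature cells fall from 0.543% and 0.271% in AD to 0.0768% and 0.0463% in AD_ABR, and their share of the 3 dendritic classes overlaps between AD 2 and AD_ABR 1 within the intervals.

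Against Cd209a-gated cells of the same libraries, the mature cells had higher RNA of Fabp5, Relb, Il4i1, Cd274 and other genes of this state and lower RNA of Lyz2, Ccr2 and several receptors for uptake. Of 4534 genes tested, 504 were higher (11.1%) and 455 lower (10.0%) at an adjusted p below 0.05 in edgeR's quasi-likelihood test with the library as a block, and the median log2 difference of all genes was -0.04. Without the barcodes of highest doublet score, 430 (12.4%) were higher and 418 (12%) lower of 3480 tested. Of 953 genes called and not used to choose the cells, 732 were tested without those barcodes, 616 were called again, and 4 had the opposite sign. Without AD 2 the lower genes numbered 281. The cells being compared were gated on Ccr7, and Ccr7 and the genes of the gates are not read as results.

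The gene of lowest p was Fabp5, a cytosolic fatty-acid-binding protein (ENSMUSG00000027533, chr3:10012548-10016607 on GRCm38). It stood at 2541, 5279, 2486 and 2881 CPM in the members and at 56.7, 73.8, 13.2 and 23.9 CPM in the Cd209a-gated cells, a log2 difference of 6.25 (SE 0.32, edgeR adjusted p = 1.02e-09). It was detected in 86 of the 95 members, and the lowest member sum was many times the highest gated sum. Cacnb3 (chr15:98630840-98644529), the β3 subunit of voltage-gated calcium channels, stood at 204, 122, 182 and 240.1 CPM against 4.63, 1.17, 0 and 1.49 (log2 6.16, SE 0.45, edgeR adjusted p = 8.70e-08). It marked a subset at this depth, with a UMI in 55 of 95 members. Eno3 (chr11:70657202-70662513), an enolase known from muscle, stood at 154 to 432 CPM against 2.64 to 7.47 (log2 5.22, SE 0.36, edgeR adjusted p = 5.22e-08). Serpinb9 (chr13:33003250-33017957), an inhibitor of granzyme B, stood at 180.1, 215, 742 and 408 CPM against 10.4 to 23.8 (log2 4.42, SE 0.30, edgeR adjusted p = 5.22e-08). These genes were chosen for low p and 1 direction in all 4 libraries, which favours a clean separation. In each of them all 4 member sums lay above all 4 gated sums.

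The same held for Tmem123, a cell-surface mucin-like protein (log2 3.46), for Anxa3, an annexin (4.07), for H2-Eb2, an MHC class II β chain gene (4.40), and for Cd63, a tetraspanin of endosomes (3.40). It also held for Tspan3, another tetraspanin (3.53), and for Tbc1d4, a GTPase-activating protein for Rab proteins (2.95). SEs of these 6 lay between 0.24 and 0.35, and the largest edgeR adjusted p was 8.39e-07. Tbc1d4 varied least among the libraries, at 1580.3, 1417, 1458 and 1441 CPM, and was detected in 91 of 95 members. Nudt17, a hydrolase of the Nudix family, had 81 UMIs in the members and 1 in the Cd209a-gated cells, a ratio per UMI of 278 (95% counting interval 48.5 to 11122). Tnfrsf4, the receptor OX40, had 43 and 1, a ratio of 148 (25.1 to 5967). These ratios rest on 1 UMI in the gated cells, and the intervals show how little that fixes their size.

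Among the 8 genes named as lower were Lyz2 and Ccr2, known from macrophages and monocytes. Lyz2, lysozyme (chr10:117277331-117282321), stood at 60, 25.9, 26 and 24 CPM in the members against 766, 610.0, 1456 and 2025 CPM in the Cd209a-gated cells (log2 -4.62, SE 0.35, edgeR adjusted p = 1.32e-07). Ccr2 (chr9:124101950-124113557), the receptor by which monocytes and their progeny enter tissue, stood at 9.61, 0, 0 and 24 CPM against 319, 304, 243 and 181 (log2 -5.61, SE 0.52, edgeR adjusted p = 1.31e-06), and had a UMI in 3 of 95 members. Ccl6, a chemokine of macrophages (log2 -3.73), and Alox5ap, which activates 5-lipoxygenase in leukotriene synthesis (-3.71), were lower too. So were Zfp36l2, which destabilises mRNA (-2.95), Cd53, a leukocyte tetraspanin (-2.86), Lgals3, galectin-3 (-2.72), and Fxyd5, a regulator of the sodium pump (-2.41). For these 8 genes, chosen in the same way as the higher ones, no member sum reached the lowest gated sum.

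**Figure D3:**
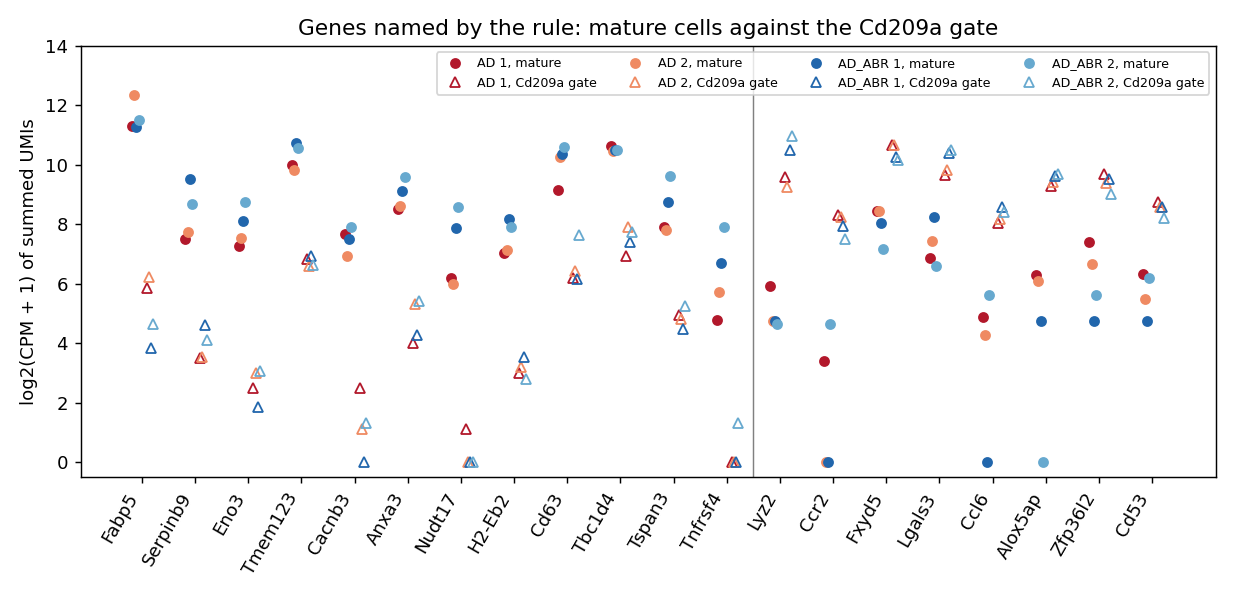
Summed expression per library, log2(CPM + 1), of the 12 higher and 8 lower named genes, with 1 point per library for the mature cells and 1 for the Cd209a-gated cells. The genes were chosen to have 1 direction in all 4 libraries, so the side on which the mature cells lie follows from the choice. Fabp5, for example, stood at 2486 to 5279 against 13.2 to 73.8 CPM.

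Migration and cytoskeleton genes included Marcks, Swap70 and Myo1g among those higher in the members. Ccr7 itself (ENSMUSG00000037944, chr11:99144196-99155077) had medians of 8, 21, 35 and 24 UMIs per member and ranged from 1 to 71, and Fscn1, which bundles actin in dendrites, had medians of 6, 4, 14 and 7. Of 14 genes of this list that did not choose the cells, 13 were tested, and 6 were higher and 1 was lower. Their median log2 difference was 0.89, against -0.04 for all genes, of which 11.1% were higher and 10.0% lower. Without the barcodes of highest doublet score 8 were higher and 1 lower. Marcks, an actin- and membrane-binding protein, stood at 1393, 1162, 1614 and 1176 CPM against 257, 331, 283 and 349.8 CPM (log2 2.06, SE 0.24, edgeR adjusted p = 1.38e-05). Swap70, an actin regulator needed for dendritic cell migration, stood at 399.5 to 504 CPM against 67.3 to 149 (log2 1.72), and Myo1g, a membrane myosin of leukocytes, at 211 to 521 against 88 to 135 (1.38). Both were past the threshold, and neither overlapped between the classes. The list also counted Tbc1d4 and Cd63, given above, and Marcksl1 (log2 1.15), whose call was lost without AD_ABR 1 (0.82), without AD_ABR 2 (0.92) and in the AD libraries alone (0.41). Ezr, which links the membrane to actin, was the lower gene, at 103, 144, 78.1 and 0 CPM against 211 to 259.9 CPM (log2 -1.43, edgeR adjusted p = 0.0054). Its call was lost with cells thinned to 2000 UMIs (-0.54, adjusted p = 0.298) and against cells gated on Flt3 in place of Cd209a (-1.08, adjusted p = 0.0587).

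Ligands of Ccr7 lay in other cells of the tissue. Ccl21a stood at 4137, 2509, 480 and 626 CPM in the barcodes gated as lymphatic endothelium, and Ccl19 at 215, 133, 185 and 129 CPM in those gated as fibroblasts. These are levels and not tests. Ccl19 had a UMI in 4, 3, 0 and 1 members (38.4, 115, 0 and 144 CPM). It was called higher than in the Cd209a-gated cells (log2 2.17, SE 0.59, edgeR adjusted p = 0.0176), but the call was lost without AD 2 (1.32) and without AD_ABR 2 (1.94), and the gene was not tested after removal of the barcodes of highest doublet score. Whether its UMIs in the members came from fibroblast RNA was not tested. Ccr7 UMIs were not confined to the members either. Barcodes with Ccr7 numbered 901, 602, 78 and 115, and the members held 15.5%, 21.0%, 39.7% and 20.1% of each library's Ccr7 UMIs. B cells carried it in 60.5%, 62.7%, 71.4% and 63.3% of barcodes and T cells in 14.8%, 23.3%, 29.4% and 26.2%. In smooth muscle, which should lack the gene, 2.30%, 0.781%, 0.172% and 0.150% of barcodes had a UMI, at 3.50 CPM or less and median depths of 8119 to 10599 UMIs.

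Chemokine ligands moved in both directions. Of 13 genes of the list other than Ccl22, 12 were tested, and 3 were higher and 3 lower (11.1% and 10.0% over all genes). The median log2 difference was 0.30. Without the barcodes of highest doublet score 1 was higher and 5 lower of 11, with a median of -1.11. Cxcl16, the membrane-bound ligand of Cxcr6, was the gene higher in both, at 389, 551, 1302 and 1008 CPM against 341, 209.6, 301 and 257 (log2 1.32, SE 0.29, edgeR adjusted p = 0.00393). In the AD libraries alone it missed the threshold (0.67). Ccl3, Ccl6 and Ccl9, chemokines of macrophages, were lower in both. Ccl9 missed the threshold against the Flt3-gated cells (-0.78). Ccl3 stood at 127, 7.4, 0 and 0 CPM against 696, 349, 127 and 108 CPM (log2 -3.49, SE 0.48, edgeR adjusted p = 1.82e-04). Cxcl1, which attracts neutrophils, stood at 829, 436, 26 and 24 CPM against 72.9, 90.2, 21.1 and 53.8 CPM. Its log2 difference of 2.13 (edgeR adjusted p = 0.019) became 0.61 (adjusted p = 0.403) without the barcodes of highest doublet score. It was also no longer past the threshold without AD 1 (1.31) or AD 2 (2.01).

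Ccl5 and Ccl17, chemokines often named with mature dendritic cells, did not pass the test. Ccl5 stood at 1893, 1816, 7862 and 1801 CPM against 631, 389, 7.93 and 102 CPM. All 4 member sums exceeded the gated sums, the gated sums ranged widely, and the log2 difference was 3.49 (SE 1.63, edgeR adjusted p = 0.279). Of the 604 Ccl5 UMIs in AD_ABR 1, 56.1% lay in 1 barcode. Ccl17 stood at 98.5, 62.9, 13 and 192 CPM against 156, 30.4, 71.4 and 37.4 CPM, with overlapping ranges (log2 0.12, SE 0.50, adjusted p = 0.917). It was detected in 14 of 95 members, and 10 of these also held Ccl22, whereas 29 of the 42 members with Ccl22 held Ccl5. Ccr4, the receptor for Ccl17 and Ccl22, had no UMI in the members and stood at 14.9, 13.3, 0 and 2.61 CPM in T cells.

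Of 8 chemokine and chemoattractant receptors tested, 1 was higher and 3 were lower, where 11.1% and 10.0% of all genes were called. The count of higher genes is thus near the share over all genes. Gpr183, a receptor for oxysterols that positions dendritic cells, stood at 307, 351, 221 and 384 CPM against 109, 165, 161 and 203 CPM (log2 0.96, SE 0.25, edgeR adjusted p = 0.0093). It missed the threshold without AD 1 (0.79), without AD 2 (0.97) and with no filter on low counts (0.70). Ccr1 and Ccr2, receptors for inflammatory chemokines, were among the lower genes, with log2 differences of -2.62 and -5.61.

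Relb, Nfkb2 and Birc2 were the NF-κB genes higher in the members by the widest margins. The non-canonical branch of this pathway runs from receptors such as CD40 through the kinase NIK (Map3k14), which the ubiquitin ligases Birc2 and Birc3 restrain, to the subunits Nfkb2 and Relb. Of 16 genes tested, leaving out Traf1, 5 were higher and 1 was lower, with a median log2 difference of 0.09. The shares over all genes were 11.1% higher and 10.0% lower. Relb and Birc3 are also on the list of mature dendritic cell markers. With cells thinned to 2000 UMIs 2 of 9 were higher. The list holds both branches, and the branches were not tested apart. The 5 higher genes were Relb, Nfkb2, Birc2, Birc3 and Map3k14. Relb (chr7:19606217-19629438) stood at 243, 303, 495 and 1032 CPM against 64.8, 70.3, 76.6 and 43.3 CPM (log2 2.66, SE 0.37, edgeR adjusted p = 2.35e-04) and was detected in 81 of 95 members. Nfkb2 (chr19:46304320-46312385) stood at 180.1, 196, 195 and 144 CPM against 84.5, 72.6, 71.4 and 38.9 CPM (log2 1.32, SE 0.27, adjusted p = 0.00192). Birc2 stood at 196 to 495 CPM against 31.6 to 61.3 (log2 2.49), and none of these 3 genes overlapped between the classes. Birc3 (log2 1.19, adjusted p = 0.0157) and Map3k14 (1.01, 0.013) were called by smaller margins. Birc3 lost its call without AD 1 (1.21) and without AD_ABR 1 (0.79), and Map3k14 without AD_ABR 1 (0.78), with no filter (0.75) and in the AD libraries alone (0.73). Nfkb1, the subunit of the canonical branch, stood at 429.9, 259, 195 and 192 CPM against 352, 289, 243 and 167 (log2 -0.06, SE 0.24, adjusted p = 0.917). Nfkbiz, the lower gene, lost its call without AD_ABR 1 (-0.92), without AD_ABR 2 (-0.83) and without the barcodes of highest doublet score (adjusted p = 0.32), and Rel gained one (0.96, adjusted p = 0.00119).

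Promoters of 3 genes expressed in the members are shown because RelA- and RelB-containing dimers are known to bind sequences of the form GGGA, any 4 bases, then CC. The sequences are from RefSeq on GRCm38.p6, from 250 bases before to 50 bases after the annotated start, 5′ to 3′ on the gene's strand, with matches to that form on either strand in capitals. They lie at chr8:94745434-94745733 on the plus strand (Ccl22), chr19:46304487-46304786 on the plus strand (Nfkb2, the most upstream of its annotated starts) and chr9:7873121-7873420 on the minus strand (Birc3).
Ccl22: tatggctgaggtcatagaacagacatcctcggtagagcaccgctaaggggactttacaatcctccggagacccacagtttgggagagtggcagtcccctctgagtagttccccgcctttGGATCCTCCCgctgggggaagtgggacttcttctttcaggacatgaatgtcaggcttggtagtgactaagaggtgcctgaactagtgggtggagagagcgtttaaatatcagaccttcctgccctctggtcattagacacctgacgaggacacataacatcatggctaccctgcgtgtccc
Nfkb2: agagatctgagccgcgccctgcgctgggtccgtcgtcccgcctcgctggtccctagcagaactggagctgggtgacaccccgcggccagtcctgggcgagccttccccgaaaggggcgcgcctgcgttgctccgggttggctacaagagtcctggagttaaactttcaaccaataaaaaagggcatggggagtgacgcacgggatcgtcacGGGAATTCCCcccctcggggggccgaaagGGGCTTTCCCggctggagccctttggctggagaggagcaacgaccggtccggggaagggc
Birc3: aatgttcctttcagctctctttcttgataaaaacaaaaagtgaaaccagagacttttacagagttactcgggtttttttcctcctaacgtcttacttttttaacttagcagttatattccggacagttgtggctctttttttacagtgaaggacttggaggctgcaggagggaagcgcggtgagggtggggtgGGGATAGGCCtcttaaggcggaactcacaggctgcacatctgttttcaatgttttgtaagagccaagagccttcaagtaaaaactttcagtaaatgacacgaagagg
Positions are of the first base of a match as printed, counted from the start. Ccl22 had 1 match, at -131, on the opposite strand. Nfkb2 had 3, at -39 on both strands, which is 1 palindromic run, and at -10. Birc3 had 1, at -57. The promoters of Ccl17 and Traf1 had 0. Over all RefSeq promoters of this length, 6810 of 32851 (20.7%) held at least 1 match, so a match is common. It describes letters and not binding.

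Among costimulatory molecules Cd40 and Cd80 were higher in the members, and Cd86 and Cd83 were not past the threshold. Of 9 costimulation genes tested, 2 were higher and 1 lower, with a median log2 difference of 0.10. Over all genes 11.1% were higher and 10.0% lower, so on 9 genes these counts do not set the list apart. Cd40, which receives the signal of helper T cells, stood at 125, 96.2, 221 and 312 CPM against 38.2, 39.8, 47.6 and 19.4 CPM (log2 2.03, SE 0.36, edgeR adjusted p = 5.87e-04). Cd80, a ligand of CD28, was higher by 1.10 (adjusted p = 0.0149), and its call was lost without AD 1 (1.03), without AD 2 (1.18) and with no filter (0.85). Cd86, the other ligand of CD28, stood at 171, 178, 182 and 312 CPM against 219.9, 180.3, 267 and 175 CPM (log2 -0.14, SE 0.26, adjusted p = 0.779). Cd83 likewise overlapped, at 596 to 1248 CPM against 603 to 982 (log2 0.10, SE 0.22, adjusted p = 0.834). Cd48 was the lower gene (log2 -1.93, adjusted p = 0.00135).

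Of 10 inhibitory and tolerance genes tested, 6 were higher and 1 lower, with a median log2 difference of 1.91. By the same test 11.1% of all genes were higher and 10.0% lower. Socs2 and Il4i1 are also on the list of mature dendritic cell markers. The gate on Ccr7 divides the classes, so the direction of these genes is a description. Cd274, which encodes PD-L1 (chr19:29367455-29388095), stood at 149, 181, 312 and 144 CPM against 26.6, 30.4, 31.7 and 12 CPM (log2 2.77, SE 0.31, edgeR adjusted p = 1.12e-05). It was detected in 54 of 95 members. Il4i1 (chr7:44816387-44840809), a secreted amino acid oxidase, stood at 312, 436, 625 and 672 CPM against 18.5, 8.2, 2.64 and 1.49 CPM (log2 5.66, SE 0.53, adjusted p = 4.85e-05). It was detected in 68 members. Socs2, a suppressor of cytokine signalling, stood at 319, 263, 338 and 336 CPM against 4.63, 24.6, 5.29 and 0 CPM (log2 5.03, SE 0.59, adjusted p = 2.05e-04). Cd200, the ligand of an inhibitory receptor on myeloid cells (log2 2.57), Fas, a death receptor (2.08), and Socs1 (1.74) were the other higher genes. Socs1 was not tested without the barcodes of highest doublet score and lost its call without AD 1 (1.20). Tgfb1 was lower, at 26 to 55.5 CPM against 124 to 166 (log2 -1.73, adjusted p = 6.14e-04), and missed the threshold with thinned cells (-1.26, adjusted p = 0.0527).

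**Figure D4:**
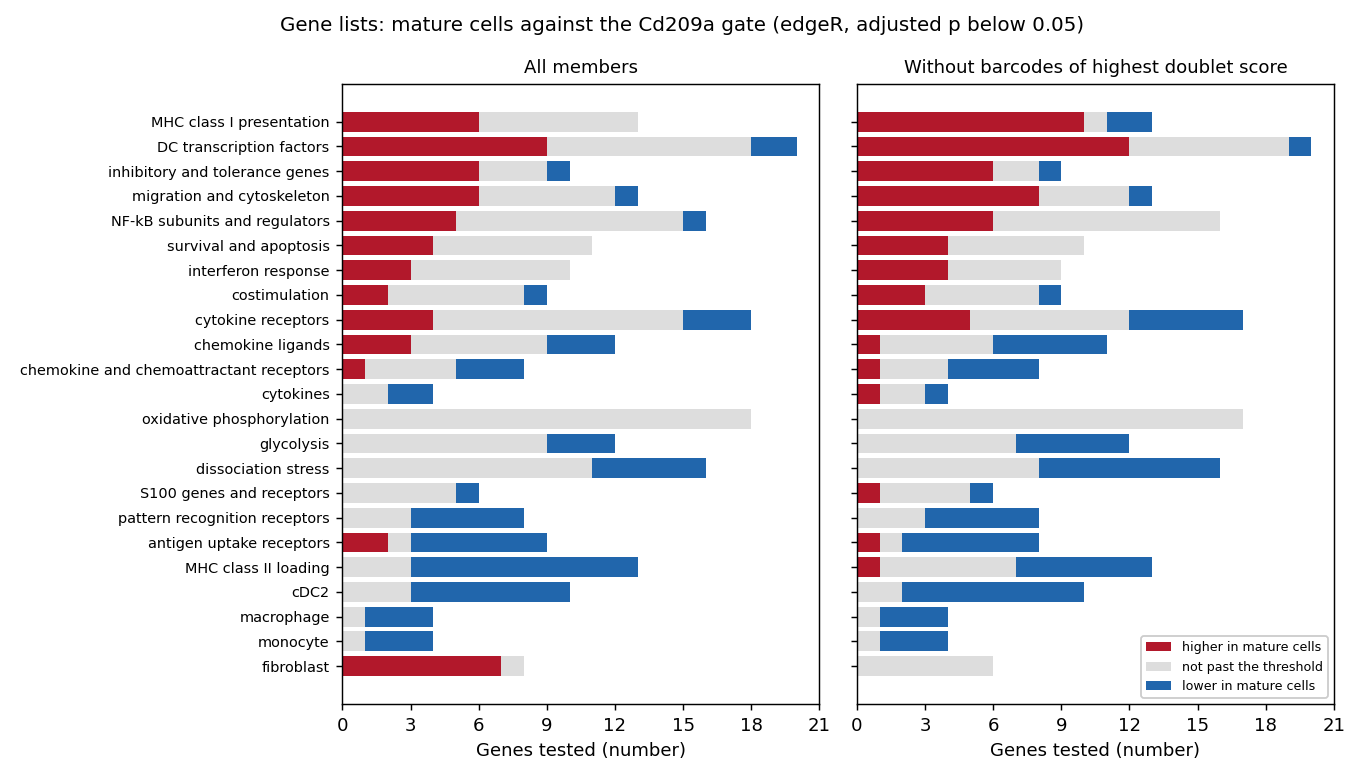
Number of genes of each list that were higher, lower or not past the threshold in mature cells against Cd209a-gated cells, with all barcodes (left) and without those of highest doublet score (right). MHC class II loading genes have 10 lower of 13 on the left and 6 on the right, and fibroblast genes 7 higher of 8 on the left and 0 of 6 on the right.

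Several genes that load or restrain MHC class II were lower in the members. Of 13 genes of the MHC class II pathway tested, 0 were higher and 10 lower by edgeR (median log2 -0.95), and without the barcodes of highest doublet score 1 was higher and 6 lower (median -0.62). With cells thinned to 2000 UMIs 12 were tested, 0 were higher and 3 lower by edgeR (median -0.57). Cd74, the invariant chain, stood at 12037, 12958, 13733 and 12389 CPM in the members against 22113, 22174, 25476 and 24318 CPM (log2 -0.95, SE 0.16, edgeR adjusted p = 4.56e-04), and was among those called both ways. H2-DMa, a chain of the peptide-exchange factor, stood at 288, 274, 104 and 96 CPM against 762 to 1040.3 (log2 -2.24), and its partner H2-DMb1 at 48 to 169 CPM against 432 to 774 (-2.30). Marchf1, the ligase that sends surface MHC class II for degradation, had 2 UMIs in the members and 161 in the gated cells, 23.4 times more per UMI in the latter (95% counting interval 6.38 to 195). H2-Oa and H2-Ob, which restrain H2-DM, were lower too (log2 -1.35 and -1.68), but neither call held with thinned cells (-0.50, adjusted p = 0.386, and -1.29, adjusted p = 0.0813). H2-Aa, H2-Eb1, Ctss and Ciita, with differences between -1.15 and -0.60, were no longer past the threshold without the barcodes of highest doublet score, and H2-Aa, H2-Eb1 and Ctss not without AD 1 or without AD 2 (-0.62 to -0.49). H2-Ab1 had medians of 24, 56, 69 and 61 UMIs per member. It is a rule gene, of which each member had to hold at least 5 UMIs, so these values are a description.

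Of 13 genes of the MHC class I pathway tested, 6 were higher and 0 lower (median log2 0.69), and without the barcodes of highest doublet score 10 were higher and 2, Calr and Pdia3, lower (median 1.06). Psme2, a subunit of the proteasome activator PA28, stood at 466, 481, 820.1 and 1104 CPM against 113, 122, 127 and 143 CPM (log2 2.31, SE 0.24, edgeR adjusted p = 5.94e-06). B2m, the light chain of class I, stood at 2212, 1617, 3762 and 2593 CPM against 1029.8 to 1509 (log2 0.88, SE 0.21, adjusted p = 0.00626). B2m lost its call without AD_ABR 1 (0.66), as did H2-K1 (0.46), Psmb8 (0.67), Psmb9 (0.90) and Psme1 (0.55), and with no filter B2m (0.61), H2-K1 (0.50), Psmb8 (0.61) and Psme1 (0.63) lost theirs. Against cells gated on Flt3 in place of Cd209a, Psmb8 (0.32), Psmb9 (0.02) and Psme1 (0.14) were not past the threshold either. Psme2 kept its call in every setting that tested it.

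Most of the tested receptors for uptake and for microbial products were lower in the members. Of 9 uptake receptors tested, 2 were higher and 6 lower (median log2 -2.67), and of 8 pattern recognition receptors 0 were higher and 5 lower by edgeR (median -1.56). Over all genes 11.1% were higher and 10.0% lower. Clec10a, Mgl2 and Clec12a are also cDC2 markers. The comparison cells were gated on a cDC2 marker, so the direction of these genes is no independent finding. Clec10a, a lectin of cDC2, stood at 84.1, 44.4, 0 and 0 CPM in the members against 424, 546, 605 and 517 CPM (log2 -3.52, SE 0.50, edgeR adjusted p = 5.43e-04). Mgl2 (log2 -3.44), Mrc1, the mannose receptor (-3.11), Clec12a (-2.67) and Fcgr2b, an inhibitory Fc receptor (-2.60), were lower, Mgl2 not past the threshold against the Flt3-gated cells (-2.42, adjusted p = 0.0509). Fcgr3, an activating Fc receptor, had 2 UMIs against 172, 25 times more per UMI in the gated cells (6.83 to 208). Tlr2 fell by 2.32 on the log2 scale (adjusted p = 4.11e-04). The exception was Ly75, the receptor DEC-205, at 33.6, 62.9, 182 and 48 CPM against 0, 2.34, 5.29 and 2.99 CPM (log2 4.78, SE 0.54, adjusted p = 1.26e-05), with a smaller difference from the Flt3-gated cells (2.67). Axl, the other higher gene (log2 1.10), lost its call without any 1 of the libraries (0.86 to 1.17) and was not tested without the barcodes of highest doublet score.

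Lineage genes followed the same division. The counts below stand beside 11.1% higher and 10.0% lower over all genes. Of 10 cDC2 markers tested other than Cd209a, 0 were higher and 7 lower by edgeR (median log2 -2.40), Itgam (CD11b) among them at 21.6, 3.7, 0 and 0 CPM against 124 to 229.9 CPM (log2 -4.06, SE 0.46, adjusted p = 1.28e-05). Of 5 cDC1 markers, Batf3 was higher (log2 1.31, adjusted p = 0.0129), and Naaa, Wdfy4 and Ppt1 were lower. Batf3 lost its call against the Flt3-gated cells (0.38, adjusted p = 0.603), without AD_ABR 1 (0.84), without AD_ABR 2 (1.25) and in the AD libraries alone (0.68). Ppt1 (-1.07) lost its call without AD 1, AD 2 or AD_ABR 2 (-1.03 to -0.95). Of 4 monocyte markers tested, 3 were lower (Ccr2, Plac8 and Ms4a4c), and of 4 macrophage markers 3 (Lyz2, Csf1r and Mrc1). The comparison cells were gated on a cDC2 marker, so the direction of the cDC2 list is no independent finding. Flt3, the growth factor receptor that defines conventional dendritic cells, stood at 132, 122, 78.1 and 240.1 CPM against 101, 114, 92.5 and 97.2 CPM (log2 0.30, SE 0.29, adjusted p = 0.542).

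Of 20 dendritic cell transcription factors tested, 9 were higher and 2 lower (median log2 0.79), where 11.1% and 10.0% of all genes were called. Relb, counted above among the NF-κB genes, was among the higher genes here too. Id2, an inhibitor of E proteins needed for conventional dendritic cells, stood at 838, 762, 1835 and 912 CPM against 302, 215, 140.1 and 217 CPM (log2 2.14, SE 0.34, edgeR adjusted p = 7.59e-04), and the difference from the Flt3-gated cells was 1.02. Stat4 (log2 2.03), Irf1 (1.23) and Nr4a3 (0.96), an early-response nuclear receptor reported to be needed for dendritic cell migration, were higher as well. Nr4a3 missed the threshold with no filter (0.70). Irf1 lost its call without AD 1 (1.00), Etv3 (log2 0.67) without any 1 of the libraries (0.56 to 0.79), and Stat3 (0.77) without AD 1, AD 2 or AD_ABR 1 (0.51 to 0.87). Irf8, the factor of the cDC1 lineage, stood at 118, 199.8, 729 and 312 CPM against 32.4, 141, 15.9 and 10.5 CPM. Its difference of 2.58 was not past the threshold (SE 1.03, adjusted p = 0.182), and without the barcodes of highest doublet score it was (3.09, adjusted p = 0.0178).

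Cytokine receptors gave 4 higher and 3 lower genes of 18 tested (median log2 -0.21), where 11.1% and 10.0% of all genes were called. Il2ra, the α chain of the interleukin-2 receptor, stood at 106, 155, 78.1 and 72 CPM against 11.6, 5.85, 2.64 and 8.97 CPM (log2 3.70, SE 0.42, edgeR adjusted p = 1.31e-05). Tnfrsf4, given above, Il21r (log2 1.32) and Il7r (1.54) were the other higher genes, and Il7r lost its call without AD 2 (1.17), without AD_ABR 1 (1.22) and in the AD libraries alone (1.32). Ifngr1, a chain of the interferon-γ receptor, was lower, at 24 to 81.4 CPM against 269.7 to 314 (log2 -2.17, adjusted p = 4.95e-05). Of 4 cytokines tested, Il1b was lower, at 437, 891, 1198 and 1825 CPM against 1419, 3078, 2614 and 1876 CPM (log2 -1.26, SE 0.26, adjusted p = 0.00202). Tnf was lower too (-1.66, adjusted p = 0.0242). It was not past the threshold without the barcodes of highest doublet score (adjusted p = 0.172), without AD 2 (-0.97) or without AD_ABR 2 (-1.62). Il12b, a chain of interleukin-12, was detected in 6 of 95 members and was too low for the test.

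For the lists that follow, the shares over all genes were 11.1% higher and 10.0% lower, and each list holds few tested genes. Interferon-response genes gave 3 higher of 10 tested (median log2 0.36), among them Gbp2, a guanylate-binding protein (log2 3.30), and Irf1. Of 11 survival genes tested 4 were higher (median 0.32), among them Bcl2a1b, an anti-apoptotic protein of a family of near-identical copies whose reads cannot be assigned with certainty (log2 1.51, edgeR adjusted p = 0.0167), which lost its call without AD_ABR 1 (1.25) and in the AD libraries alone (0.58). Of 16 genes of the dissociation stress response 0 were higher and 5 lower by edgeR (median -0.57). Atf3 stood at 1340.2, 666, 820.1 and 864 CPM against 2001 to 2778 CPM (log2 -1.47). The heat-shock gene Hspa1a stood at 4851, 562, 364 and 480.2 CPM in the members and 6734, 2594, 1636 and 1317 CPM in the gated cells, so AD 1 was high in both classes. Oxidative phosphorylation genes gave 0 calls of 18 by edgeR (median -0.19), glycolysis genes 3 lower of 12 (median -0.37) and sterol genes 1 higher, Idi1, of 8. The sterol count is near the share over all genes.

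The fibroblast list had 7 of 8 genes higher with all barcodes (median log2 1.82) and 0 of 6 without those of highest doublet score (median 0.86). Col1a1, a collagen chain, stood at 2856, 2586, 3319 and 3721 CPM against 332, 276, 122 and 771 CPM (log2 3.21, edgeR adjusted p = 1.91e-04), and its difference without those barcodes was 1.28 (adjusted p = 0.358). The list of mature dendritic cell markers had 12 higher genes of 14 tested both ways, with a median of 3.72 and 4.62. The gate on Ccr7 divides the classes, so these values of the marker list are a description.

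S100a8 and S100a9, whose protein paquinimod binds, were nearly undetected in the members. S100a9 stood at 21.6, 0, 0 and 0 CPM, with a UMI in 8 of the 54 members of AD 1 and in none elsewhere, and S100a8 at 16.8, 0, 0 and 0 CPM. In the Cd209a-gated cells S100a9 stood at 245, 38.6, 0 and 0 CPM, and in neutrophils at 19205, 13292, 8945 and 18128 CPM. AD 1 was also the library with the most neutrophil barcodes, 513 against 64, 16 and 5, and their part in the members' UMIs was not tested. Of 6 genes tested in the S100 list 1 was called, where 11.1% of all genes were called higher and 10.0% lower. S100a10, a partner of annexin A2, was this gene, at 429.9, 363, 130.2 and 96 CPM against 591, 521, 819 and 1102 CPM (log2 -1.46, SE 0.45, edgeR adjusted p = 0.0445). It missed the threshold against the Flt3-gated cells (-0.72, adjusted p = 0.461), without AD_ABR 1 (-1.20) and without AD_ABR 2 (-1.02), and was -0.60 in the AD libraries alone.

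The members were not uniform. Apol7c (ENSMUSG00000044309, chr15:77524852-77533316), a member of the apolipoprotein L family that acts at phagosome membranes of dendritic cells, had a UMI in 6 of 54, 1 of 29, 5 of 7 and 4 of 5 members. The exact binomial intervals were 4.19% to 22.6%, 0.0873% to 17.8%, 29.0% to 96.3% and 28.4% to 99.5%. Its CPM were 74.5, 3.7, 1172 and 1393, in AD_ABR 2 with 75.9% of the 58 UMIs in 1 barcode. Both AD_ABR libraries lay above both AD libraries. Members thinned to 2000 UMIs each had it in 7.41%, 3.45%, 57.1% and 40%. Its UMIs numbered 31, 1, 90 and 58 in the members, and 0 of 401 Cd209a-gated cells held one, which allows a share of up to 0.748%. In smooth muscle it stood at 0.160 CPM or less. Apol7c was also detected in the Xcr1 or Clec9a-gated cells, so among dendritic cells its RNA was not confined to the members. The gene was singled out after its values were seen, and 12 members in AD_ABR are too few for a test. Of the 16 members with Apol7c, 14 also held Serpinb6b, an intracellular protease inhibitor, 9 held Irf8, and 0 held Cd209a. Over all 95 members these 3 genes were in 55, 39 and 11. Cd209a was in 0 of the 12 AD_ABR members, where 9 of the 16 with Apol7c lay. The overlaps were not tested.

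Cd209a had a UMI in 6, 5, 0 and 0 members. Of these 11, 6 held Mgl2, 6 held Fabp5, 1 held Cacnb3, and 5 were among the 12 members rich in fibroblast RNA. Irf8 had a UMI in 14 of 54, 16 of 29, 6 of 7 and 3 of 5, and after thinning in 13%, 31.0%, 42.9% and 20%. AD_ABR 1, the library with the highest share, also had the deepest members. Tnfsf4, the ligand of OX40, was detected in 22, 8, 1 and 0 members. Il12b was detected in 1, 2, 3 and 0 members, 56.2% of its 16 UMIs in AD_ABR 1 in 1 barcode.

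**Figure D5:**
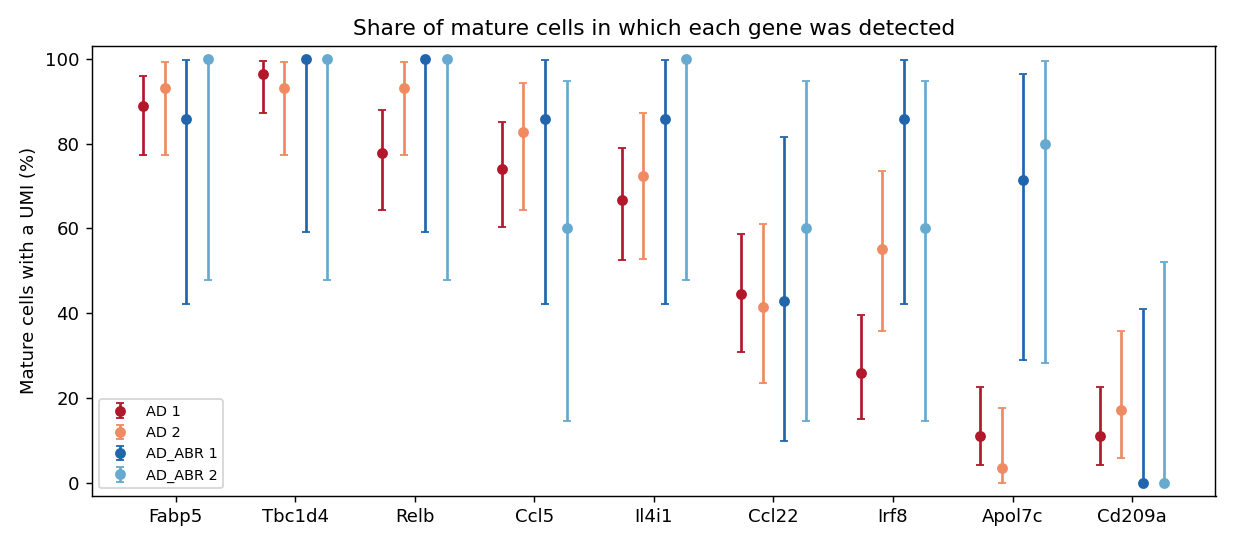
Percent of mature cells with a UMI of each gene in each library, with 95% exact binomial intervals. Fabp5 and Tbc1d4 are found in most members of every library, whereas Apol7c is found in 7 of 83 AD members and 9 of 12 AD_ABR members.

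Many barcodes lay just outside the rule's Fscn1 limit. A further 570 barcodes (279, 254, 15 and 22) met every limit except that they held 0 UMIs of Fscn1, 2.81%, 2.37%, 0.165% and 0.204% of kept barcodes. Their median Ccr7 count was 4 UMIs, 134 held Ccl22, 379 (66.5%) held Cd209a, and 546 held Cd83. Their pooled levels lay between those of the members and of the Cd209a-gated cells for 17 of the 20 named genes. Fabp5 was at 377 CPM, against 3473 in the members and 48.1 in the gated cells. Tbc1d4 was at 709.7 against 1506 and 187, Ccr2 at 177 against 6.21 and 271, and Lyz2 at 304 against 43.5 and 1117. Of the 17 members with exactly 1 Fscn1 UMI, 11 held Fabp5, 15 held Tbc1d4 and 1 held Cacnb3, and of the 570 just outside 189, 378 and 18 did. At the other limits fewer barcodes lay close by. Those that missed only the Ccr7 limit numbered 38, of which 17 held Fabp5, and all 7 members with a single Ccr7 UMI held both Fabp5 and Tbc1d4. Those that missed only the H2-Ab1 limit numbered 77. These values describe the limits and carry no test.

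Expression of the members was not tested between AD_ABR and AD, because AD_ABR libraries held 7 and 5 members and at least 10 per library had been set. The difference of the AD_ABR effect between members and Cd209a-gated cells was fitted over the 8 sums. Of 4534 genes, 36 (0.794%) passed an adjusted p of 0.05 in edgeR, 19 in the direction of a higher and 17 of a lower effect in the members, and 488 had an unadjusted p below 0.05. Irf8 was 1 of them, with sums of 118, 199.8, 729 and 312 CPM in the members and 32.4, 141, 15.9 and 10.5 CPM in the gated cells (interaction log2 4.13, SE 0.59, adjusted p = 9.37e-04). Without the barcodes of highest doublet score 0 of 3480 genes passed in edgeR, with 246 at an unadjusted p below 0.05. DESeq2, run with all barcodes, called 13. Counts without AD 1 and AD 2 were 10 and 17, and without AD_ABR 1 and AD_ABR 2 they were 119 and 62, so the count moved with each library left out.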

How the data were processed

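RNA of single cells was counted by 10x 3′ tags in 4 libraries of mouse ascending aorta, 2 per group. The deposited matrices hold UMI counts per gene and barcode, whole numbers without normalization. The submitters' processing notes list STAR, Cell Ranger 6.0, Seurat 4.0 and GRCm38, and per the file headers the matrices were written by Cell Ranger 7.1.0. Which filters the authors applied is not given in the sources used here. Coordinates are from GENCODE M21, which held 52081 of 55357 gene identifiers, and 424 of 428 listed genes were found. 3′ counts do not separate near-identical copies.

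Members and gene lists were chosen with earlier results of these data known. UMIs were summed per class and library and tested with edgeR 4.0.16 (R 4.3.3) quasi-likelihood fits, TMM scaling, filterByExpr, the library as a block and Benjamini-Hochberg adjustment over all genes tested, with a threshold of 0.05. Class shares were tested in edgeR on numbers of barcodes, with kept barcodes as library size. Genes named for the comparison with Cd209a-gated cells are the 12 higher and 8 lower of lowest p with an absolute log2 difference of at least 1, a mean of at least 50 CPM and 1 direction in all libraries, beside genes of the lists. Lists were described over tested genes, without genes of the rule and gates and without Ccl22 and Traf1. Other marker genes stayed in, so some genes count both in a marker list and in another list. Doublets were scored with Scrublet (scanpy 1.11.5, Python 3.11.15) and left in; the alternative removed the highest scores, 0.8% per 1000 barcodes. Other alternatives were leaving out libraries, Ccr7 of at least 2 UMIs, DESeq2 1.42.0 and its size factors, no filter, thinning to 2000 UMIs, a Flt3 gate and other denominators; 2 were added after seeing the data (AD libraries only, and Ccl22 in place of Fscn1). In simulated counts for the comparison with Cd209a-gated cells, over 4534 genes with 100 changed at each size, 17% of changes of 1 and 82% of changes of 2 on the log2 scale were recovered, with 1 false call. The simulated counts had the same dispersion for every gene and no difference between libraries beyond depth. These rates are therefore not those of the real sums.

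The library numbers of the labels were not shown to pair libraries. Fits needing at least 10 cells of a class per library (members between groups, members against Xcr1 or Clec9a-gated cells) were not run. Values of some members of the gene lists are not reported here.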

Additional observations from a re-analysis of the deposited data

Results flagged for a closer look

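The effect of AD_ABR differed between mature Ccr7 dendritic cells and Cd209a-gated cells for 36 of 4534 genes by the interaction test in edgeR (adjusted p below 0.05). Of these, 10 were genes of the lists. A higher effect in the members, as interaction log2, was found for Irf8 (4.13, adjusted p = 9.37e-04), Rsad2, an antiviral enzyme (5.17, 0.00699), Ccrl2, an atypical chemokine receptor (2.35, 0.00921), Bcl2a1b (1.83, 0.0164), Isg15, a ubiquitin-like protein (2.00, 0.0402), and Marcksl1 (1.55, 0.0398). A lower effect was found for S100a10 (-2.48, 0.00724), Ccl2, a monocyte chemoattractant (-2.90, 0.00724), Cxcl1 (-3.31, 0.0439) and Mgp, matrix Gla protein of fibroblasts and smooth muscle (-2.17, 0.0385). In the members Mgp stood at 2209.6, 2729.9, 456 and 1513 CPM and Ccl2 at 941, 603, 13 and 264 CPM, in the order AD 1, AD 2, AD_ABR 1 and AD_ABR 2. Without the barcodes of highest doublet score 31 of the 36 were tested, and 0 of these passed in edgeR, where 246 of all genes had an unadjusted p below 0.05. Rsad2 rested on sums of 103, 22.2, 182 and 0 CPM in the members and 457, 35.1, 10.6 and 5.98 CPM in the gated cells, so its direction came from AD_ABR 1.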

How the results depend on the processing

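The lower share of mature cells in AD_ABR (log2 -2.71) kept its direction in every alternative. It passed without the barcodes of highest doublet score, with Ccr7 of at least 2 UMIs, with the replicate block and with Ccl22 in place of Fscn1, but not with TMM (-1.73), with the Ptprc denominator (-0.95) or with a library left out (-3.13 to -2.13). The replicate block gave -2.67 (edgeR adjusted p = 0.00135), and same-numbered libraries deviated together (correlation 0.43 over 14 classes, 0.15 over 4534 genes), yet 2 pairs do not show that numbers pair libraries. The difference in the share of the 3 gated dendritic classes (-9.43 percentage points) lay between -14.4 and -4.42 with a library left out.

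Against Cd209a-gated cells, counts of higher and lower genes (504 and 455) lay between 350 and 525 and between 281 and 453 with a library left out. They were 160 and 129 with cells thinned to 2000 UMIs, where 1217 genes were tested, and 810 were lower without the filter. No gene that the report gives with a value and as past the threshold turned its direction in this comparison. Each of the 20 genes named by the rule stayed past the threshold wherever it was tested, and these were chosen for the lowest p in the same counts.

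For the difference of the AD_ABR effect, the counts (19 higher, 17 lower) were 0 and 0 without the barcodes of highest doublet score, 7 and 6 with DESeq2, 12 higher without the filter, and 4 to 47 and 5 to 81 with a library left out. With a library left out Rsad2 lay between -2.72 (without AD_ABR replicate 1) and 6.02, and Cxcl1 and Ccl2 turned to 0.66 and 1.33 without those barcodes; the cause was not tested. Depth limits all of this: AD_ABR holds 12 members, and 76824 and 41650 UMIs in its member sums against 416370 and 270336 in AD.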
